A study of Saccharomyces cerevisiae with 9 samples.

Results

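The genes described here encode the lipid flippases of budding yeast and the protein kinases that activate them. They are the kinase genes FPK1 (YNR047W) and KIN82 (YCR091W), the catalytic flippase genes DNF1 (YER166W), DNF2 (YDR093W), DNF3 (YMR162C) and DRS2 (YAL026C), and the genes of their partner subunits, LEM3 (YNL323W) and CDC50 (YCR094W). They were taken by systematic name, and all 8 were found among the 6268 features of the table, each with a value on all 9 arrays.

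A flippase is a membrane ATPase that moves phospholipids from the outer or lumenal leaflet of a membrane to the cytosolic leaflet, so that the leaflets differ in composition. Dnf1 and Dnf2 work mainly at the plasma membrane and pair with Lem3, Drs2 works at the trans-Golgi network and pairs with Cdc50, and Dnf3 pairs with Crf1. Fpk1 and its relative Kin82 phosphorylate Dnf1 and Dnf2 and thereby activate them. Ypk1 phosphorylates Fpk1 and lowers its activity, and Fpk1 in turn acts on Ypk1. All of this is control of proteins, whereas the arrays measured transcripts.

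Every strain was Saccharomyces cerevisiae with both chromosomal kinase genes, YPK1 and YPK2, deleted, and lived on a plasmid copy of one of them in medium without leucine (SCD-Leu). On 8 dual-channel arrays, polyA RNA of cells with an analog-sensitive kinase (AS Ypk1 or AS Ypk2, a mutant that an ATP analog can inhibit) was compared with RNA of cells with the wild-type form (WT Ypk1 or WT Ypk2) after an equal time in the same compound. The inhibitor was 2,3-DMB-PP1 (0.5 µM) for the Ypk1 strains and 3-MB-PPI (1 µM) for the Ypk2 strains, and each series has 1 array at 0, 15, 30 and 60 min. A ninth array set WT Ypk2 against WT Ypk1 cells that had no inhibitor. The comparisons ask which transcripts depend on the activity of either kinase. Kinase and inhibitor changed together between the series and cannot be told apart. No condition had a second array, AS cells were always in the Cy5 channel, and whether the times of a series came from a single culture is not given in the sources used here.

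Values below are log2 ratios of AS over WT, with the median feature of each array set to 0, so that 1 is a 2-fold higher level in AS cells. A "mean ratio" is the mean of 15, 30 and 60 min, tested against 0 with limma over 6220 features, with Benjamini-Hochberg adjustment and a threshold of 0.05. Its p-value measures the spread between times, not between independent cultures. The label check gave YPK2 at 5.49 and YPK1 at −4.33 on the array of WT Ypk2 over WT Ypk1. AS cells also held more transcript of the plasmid kinase gene itself on every array of its own series, with YPK1 at 0.73, 0.82, 2.44 and 1.55 at 0, 15, 30 and 60 min and YPK2 between 1.06 and 1.53. LEU2, a gene of leucine synthesis, lay between 0.99 and 2.08 in AS over WT cells on the 8 time course arrays and at 2.46 on the WT array. The part of these differences in the results below was not tested. Without centring, the median of all features lay at −0.29 for the mean ratio of the Ypk1 series and at −0.28 for that of the Ypk2 series.

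Among the 8 genes, FPK1 alone passed the test, and only in the mean over both series. Its mean ratio over both series was 0.55 ± 0.17 (SE, 6 arrays; adjusted p = 0.0369), which is 1.46-fold higher in AS cells. LEM3 came next at 0.38 ± 0.13 (adjusted p = 0.0536) and did not pass. Over all features, 31.1% passed this test, so 1 of 8 is below the share of the whole array. At an unadjusted p below 0.05 there were 2 of the 8 genes, FPK1 and LEM3, beside 42.8% of all features. The 95% intervals of all 8 genes lay between −0.66 and 0.93. For the mean over both series, a 2-fold difference in either direction was thus outside the interval of each gene. That holds as far as the spread between times measures the error. Within a single series, intervals reached past 2-fold for FPK1 and DNF3 in both, for DNF1 with Ypk1 and for CDC50 with Ypk2. The widest were those of DNF3, from −0.46 to 1.35 for Ypk1 and from −1.25 to 0.56 for Ypk2.

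Within a single series, 0 of the 8 genes passed. In the Ypk1 series 21.5% of all features passed and in the Ypk2 series 11.7% did. At an unadjusted p below 0.05, limma gave 0 of the 8 genes in the Ypk1 series, where 36.8% of all features lay below it, and 3 of 8 in the Ypk2 series, where 27.6% did. The 3 were FPK1, LEM3 and CDC50, each higher in AS cells. The 8 genes had a median mean ratio of 0.33 for Ypk1, beside −0.01 over all features tested, and of 0.12 for Ypk2, beside 0.01. Of the 8 mean ratios, 5 were above 0 and 3 below in each series.

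**Figure D1:**
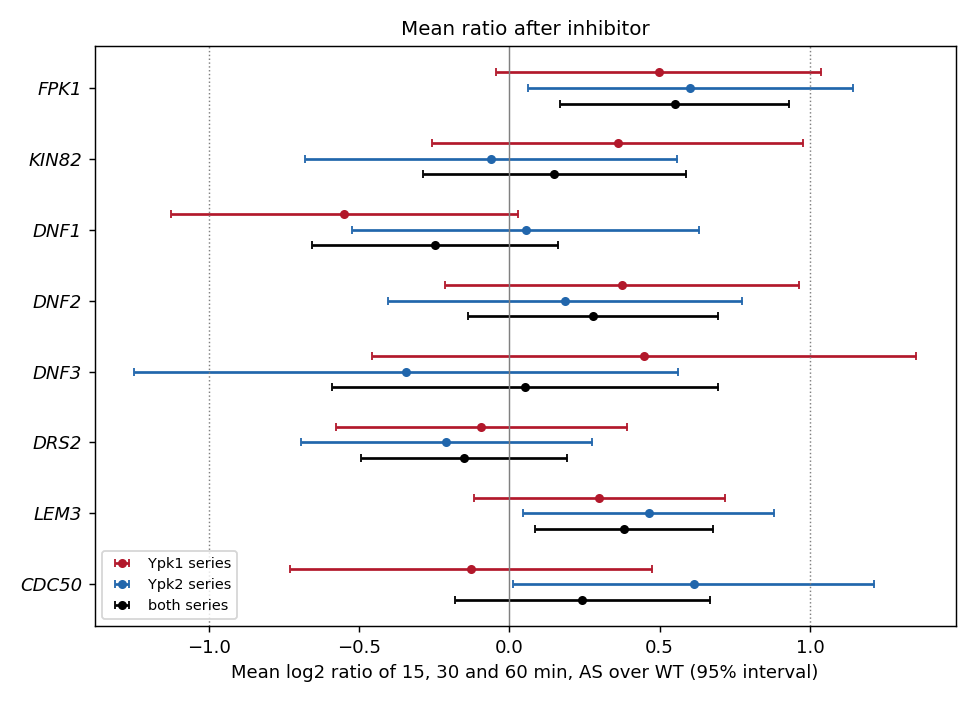
Mean log2 ratio of AS over WT cells after 15, 30 and 60 min of inhibitor for each gene, in the Ypk1 series, the Ypk2 series and both, with the 95% interval of the limma fit; dotted lines mark a 2-fold difference. The interval over both series lies above 0 for FPK1 and LEM3 and includes 0 for the other genes.

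FPK1, the main activating kinase of Dnf1 and Dnf2, started at the array median in both series. In the Ypk1 series its ratio was −0.01 at 0 min, 0.04 at 15 min, 0.37 at 30 min and 1.09 at 60 min. In the Ypk2 series it was −0.06, 0.48, 0.53 and 0.79 at the same times. The centred ratio was thus higher at each next time in both series, and all 6 arrays with inhibitor lay above both 0 min arrays. Before centring this course was not seen. The deposited values were 0.22, −0.48, 0.18 and 0.95 in the Ypk1 series and −0.30, 0.29, 0.23 and 0.42 in the Ypk2 series. At 60 min FPK1 stood at the 89.3 percentile of all features in the Ypk1 series, and at the 85.7 percentile in the Ypk2 series. A step upward at every next time was seen for 4.74% of features in the Ypk1 series (FPK1 among the 8 genes), for 10.1% in the Ypk2 series (FPK1 and LEM3) and for 1.08% in both, a pattern that was looked at after the FPK1 values were known.

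The mean ratio of FPK1 was 0.50 ± 0.54 in the Ypk1 series (SD, n = 3 times; limma adjusted p = 0.165) and 0.60 ± 0.17 in the Ypk2 series (SD, n = 3 times; limma adjusted p = 0.140). The difference between the series, −0.11 with a 95% interval from −0.87 to 0.66, did not pass (adjusted p = 0.928). Measured from 0 min, the change was 0.51 ± 0.48 (SE) for Ypk1 and 0.66 ± 0.48 (SE) for Ypk2, and neither passed (adjusted p = 0.705 and 1.00). None of the 8 genes had an unadjusted p below 0.05 in limma for either change, beside 11.3% of features for Ypk1 and 5.16% for Ypk2. The call over both series did not hold when 30 min (0.60, adjusted p = 0.154) or 60 min (0.35, adjusted p = 0.238) was left out, nor without centring (0.26, adjusted p = 0.322).

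KIN82, the relative of FPK1 with an overlapping role, followed another course. Its ratio was 0.30, −0.36, 0.57 and 0.87 at 0, 15, 30 and 60 min in the Ypk1 series, and −0.30, −0.40, 0.31 and −0.08 in the Ypk2 series. Its highest values were those at 30 and 60 min of the Ypk1 series, and in both series the 15 min array lay below 0. The mean ratio was 0.36 ± 0.65 and −0.06 ± 0.36 (SD, n = 3 times each), with limma adjusted p of 0.370 and 0.914. FPK1 lay above KIN82 on 6 of the 8 time course arrays, among them all 4 of the Ypk2 series, where the gap reached 0.89 at 15 min and 0.88 at 60 min. Across the 9 arrays their ratios had a Pearson correlation of 0.39, as a description of arrays that share their strains.

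**Figure D2:**
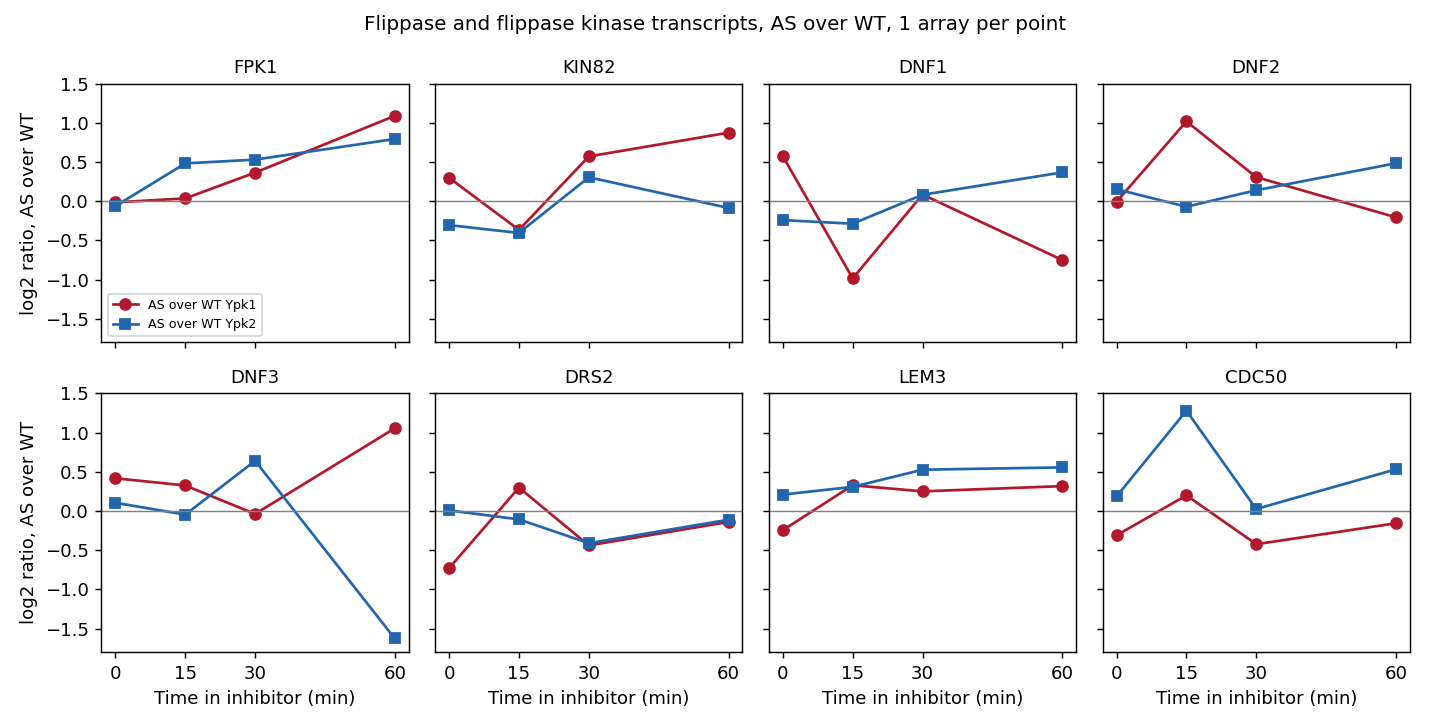
Log2 ratio of AS over WT cells (vertical axis, array median at 0) against time in inhibitor (horizontal axis, min) for each gene, with circles for the Ypk1 series and squares for the Ypk2 series; each point is 1 array. FPK1 climbs in both series to 1.09 and 0.79 at 60 min, LEM3 stays between 0.25 and 0.56 at all later times, and DNF3 stands at 1.06 and −1.62 at 60 min.

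DNF1 and DNF2, closely related flippases of the plasma membrane that transport phosphatidylethanolamine and phosphatidylcholine, did not move together in the Ypk1 series. Over the 9 arrays their Pearson correlation was −0.21. DNF1 gave ratios of 0.57, −0.98, 0.09 and −0.75 at 0, 15, 30 and 60 min in the Ypk1 series, and −0.24, −0.29, 0.08 and 0.37 in the Ypk2 series. All 3 later arrays of the Ypk1 series lay below the 0 min array, as for 27% of all features, and that array stood at the 88.4 percentile of its features. DNF2 gave 0.00, 1.02, 0.31 and −0.20 in the Ypk1 series and 0.15, −0.07, 0.14 and 0.48 in the Ypk2 series. In the Ypk2 series both genes were lowest at 15 min and highest at 60 min. At 15 min of Ypk1 inhibition DNF1 was therefore at its lowest and DNF2 at its highest value, 2.00 apart on the log2 scale. At 15 min in the Ypk2 series they were 0.22 apart. These are single arrays, and all features spread more widely on that of Ypk1 (SD 0.94) than on that of Ypk2 (SD 0.70).

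For DNF1 the mean ratio was −0.55 ± 0.56 in the Ypk1 series (SD, n = 3 times; limma adjusted p = 0.154) and 0.06 ± 0.33 in the Ypk2 series (SD, n = 3 times; limma adjusted p = 0.917). The change from 0 min in the Ypk1 series, −1.12 ± 0.51 (SE), was the largest in size among the 8 genes and did not pass (adjusted p = 0.448). For that change, 3 of 6220 features (0.0482%) passed. For DNF2 the mean ratio was 0.37 ± 0.61 and 0.19 ± 0.28 (SD, n = 3 times each), with limma adjusted p of 0.327 and 0.695. Neither gene had later ratios of one sign in either series, which 2 of the 8 genes had for Ypk1 (50.7% of all features) and 4 of 8 for Ypk2 (56.7%).

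LEM3, the subunit that Dnf1 and Dnf2 need to leave the endoplasmic reticulum, had the steadiest values. In the Ypk1 series its ratio was −0.24 at 0 min, then 0.33, 0.25 and 0.32, and in the Ypk2 series 0.21 at 0 min, then 0.31, 0.53 and 0.56. All 6 arrays with inhibitor lay above 0 and above the 0 min array of their own series. The latter was shared by 11.9% of all features, and among the 8 genes by LEM3 and FPK1. Before centring, LEM3 in the Ypk1 series was lower at 15 min (−0.19) than at 0 min (−0.01). Ratios above 0 on all 6 later arrays were shared by 14.9% of all features, and among the 8 genes by LEM3 and FPK1. Its range over the 8 time course arrays was 0.80, and 9.12% of all features had as narrow a range. The spread of LEM3 around its group means was 0.10 (residual SD), the 1.06 percentile of all features, beside a median of 0.43 over all features.

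The mean ratio of LEM3 was 0.30 ± 0.04 in the Ypk1 series (SD, n = 3 times; limma adjusted p = 0.272) and 0.46 ± 0.14 in the Ypk2 series (SD, n = 3 times; limma adjusted p = 0.141). Over both series the mean corresponded to a 1.30-fold higher level in AS cells. The value passed with scaled arrays (0.35, adjusted p = 0.0437), quantile normalization (0.36, adjusted p = 0.0430) and array weights (0.41, adjusted p = 0.0146). Those weights put 13.73 on the Ypk2 30 min array. It did not pass without 15 min (0.41, adjusted p = 0.0700), 30 min (0.38, adjusted p = 0.254) or 60 min (0.35, adjusted p = 0.232). Without centring it was 0.09 (adjusted p = 0.653). Over the 9 arrays LEM3 had a Pearson correlation of −0.33 with DNF1 and of 0.03 with DNF2, the flippases it serves. Its highest correlations within the set were 0.75 with FPK1 and 0.73 with DRS2. These describe arrays that share their strains. In the Ypk2 series LEM3, DNF1 and DNF2 were each highest at 60 min.

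DRS2, the Golgi flippase for phosphatidylserine, was at or below the median on most arrays. Its ratio was −0.73, 0.30, −0.44 and −0.14 at 0, 15, 30 and 60 min in the Ypk1 series, and 0.01, −0.11, −0.41 and −0.11 in the Ypk2 series. At 30 min the series gave nearly the same value, and 5 of 6 later arrays lay below 0. The mean ratio was −0.09 ± 0.37 and −0.21 ± 0.17 (SD, n = 3 times each), with limma adjusted p of 0.778 and 0.577. Its 3 later Ypk2 arrays lay below 0 min, as for 28.7% of all features, whereas its 3 later Ypk1 arrays lay above 0 min, a pair of opposite courses that 7.91% of all features had. The difference between the 2 changes was 0.85 ± 0.60 (SE; adjusted p = 0.998), in a fit where 2.7% of all features had an unadjusted p below 0.05. The lowest time course value of DRS2 was that of the Ypk1 array at 0 min, the 4.13 percentile of that array, so the change from 0 min in that series was positive, 0.64 ± 0.42 (SE; adjusted p = 0.598).

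CDC50, the subunit of Drs2, had its highest value on a single array. The ratio was −0.31, 0.20, −0.42 and −0.16 at 0, 15, 30 and 60 min in the Ypk1 series and 0.19, 1.28, 0.03 and 0.53 in the Ypk2 series. At 15 min of the Ypk2 series it was 2-fold or more higher in AS cells, at the 94.5 percentile of that array. The mean ratio was −0.13 ± 0.31 for Ypk1 and 0.61 ± 0.63 for Ypk2 (SD, n = 3 times each), with limma adjusted p of 0.758 and 0.174. Without 15 min the Ypk2 mean was 0.28. CDC50 lay above DRS2 on 6 of the 8 time course arrays, and by 1.39 at 15 min in the Ypk2 series.

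DNF3, a further Golgi flippase, varied most. It gave 0.42, 0.33, −0.04 and 1.06 at 0, 15, 30 and 60 min in the Ypk1 series, and 0.11, −0.05, 0.64 and −1.62 in the Ypk2 series. Its range of 2.68 over the 8 arrays was wider than that of 92.6% of features, and the 60 min arrays held both extremes. The low value was deposited as a ratio of 0.25, before centring, which 9 features on that array share, whereas each of the 20 nearest values on the ratio grid was held by at most 3 features. Without 60 min the mean ratio in the Ypk2 series was 0.30 in place of −0.34 ± 1.16 (SD, n = 3 times; limma adjusted p = 0.630). In the Ypk1 series it was 0.45 ± 0.56 (SD, n = 3 times; limma adjusted p = 0.447).

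**Figure D3:**
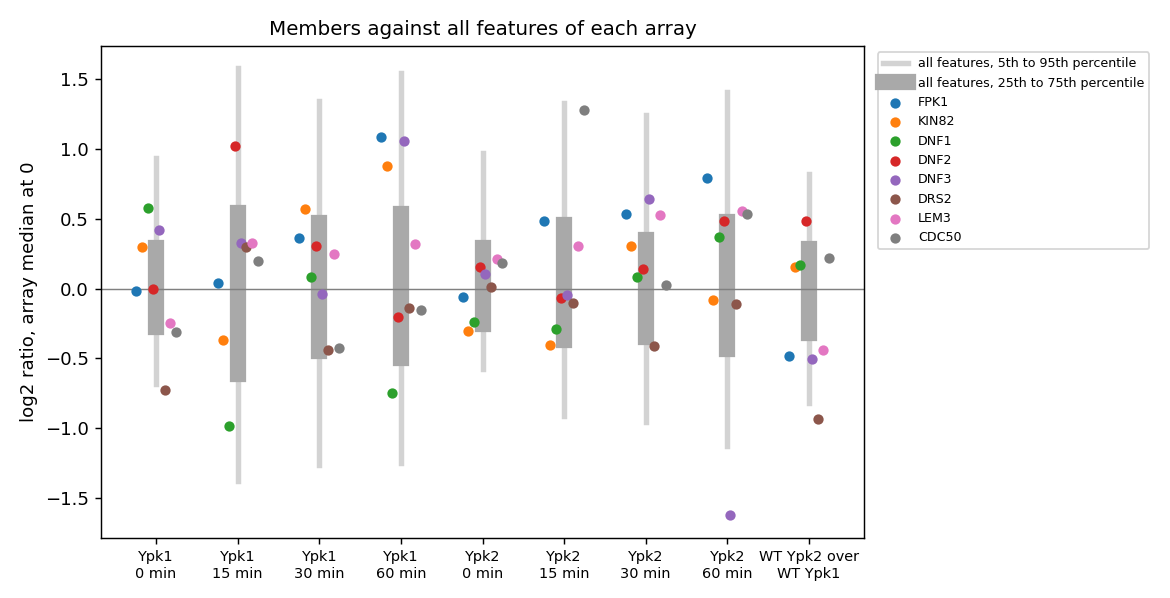
Log2 ratio of each gene (coloured points, array median at 0) on the 9 arrays, with bars for the 25th to 75th and 5th to 95th percentiles of all features of the array. Most points lie within the bars; DNF3 in the Ypk2 series at 60 min, at −1.62, and DRS2 on the Ypk1 0 min array, at −0.73, and on the WT array, at −0.93, lie below the 5th percentile.

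At 0 min, 0 of the 8 genes were at least 2-fold apart in either series, where 5.98% (Ypk1) and 4.83% (Ypk2) of all features were. At 15, 30 and 60 min of the Ypk1 series the counts were 1, 0 and 2 genes, beside 24.9%, 18.9% and 21.3% of all features. In the Ypk2 series they were 1, 0 and 1 gene, beside 13.1%, 12.1% and 16.7%. The genes were DNF2 at 15 min and FPK1 and DNF3 at 60 min in the Ypk1 series, and CDC50 at 15 min and DNF3 at 60 min in the Ypk2 series. Of these, DNF3 at 60 min in the Ypk2 series alone was lower in AS cells.

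The difference between the Ypk1 and Ypk2 mean ratios passed for 0 of the 8 genes, and for 0 of 6220 features (0%). At an unadjusted p below 0.05 limma gave 0 of the 8 genes and 602 of all features (9.68%). The largest differences were 0.79 for DNF3 (95% interval −0.49 to 2.07; adjusted p = 0.664), −0.74 for CDC50 (−1.59 to 0.11; adjusted p = 0.552) and −0.60 for DNF1 (−1.42 to 0.21; adjusted p = 0.613). These intervals are wide and include differences of more than 2-fold for all 3 genes.

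On the array of WT Ypk2 over WT Ypk1 cells without inhibitor, 0 of the 8 genes were 2-fold apart, beside 5.09% of all features. DRS2 was lowest at −0.93, the 3.11 percentile of the array. DNF3 stood at −0.50, FPK1 at −0.49 and LEM3 at −0.44, while DNF2 at 0.48, CDC50 at 0.22, DNF1 at 0.17 and KIN82 at 0.15 were higher in WT Ypk2 cells. FPK1 and LEM3 lay above the array median on all AS over WT arrays from 15 min on, and below it on the WT array. Before centring both were below 0 at 15 min of the Ypk1 series, at −0.48 for FPK1 and −0.19 for LEM3. The comparison of WT Ypk2 with WT Ypk1 cells rests on 1 array and has no test.

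Other genes around the flippases were taken as a list of 25, all of them measured on the 8 time course arrays. Over both series 36% of them passed, 8 with a higher and 1 with a lower level in AS cells, beside 16.1% and 15.1% of all features. For Ypk1, 6 were higher and 1 lower (28% in all), beside 10.9% and 10.5% of all features, and for Ypk2, 2 were higher and 1 lower (12% in all), beside 6.98% and 4.73%. For the change from 0 min, 0 of the 25 passed in limma in either series, beside 0.0482% of all features for Ypk1 and 0% for Ypk2, and 3 (Ypk1) and 1 (Ypk2) had an unadjusted p below 0.05. Of the 8 partners called higher over both series, PDR5 alone passed without centring, and PDR5 alone passed without 30 min. Without 60 min PDR5 and SUR1 passed. The median of the mean ratio over both series was 0.20 for the list and 0.01 for all features. The remaining flippase, NEO1, which needs no subunit of the Cdc50 family, had a mean ratio over both series of −0.39 (adjusted p = 0.149). CRF1 (YNR048W), the subunit of Dnf3 and the gene next to FPK1 on chromosome XIV, had −0.09 (adjusted p = 0.755). CRF1 and FPK1 had a Pearson correlation of 0.00 over the 9 arrays.

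PDR5, an ABC transporter of the plasma membrane that exports drugs and moves lipids outward, had the largest ratio of the list. It stood at −0.02, 1.44, 2.42 and 1.71 at 0, 15, 30 and 60 min in the Ypk1 series, and at 1.23, 1.84, 2.29 and 2.02 in the Ypk2 series. Its mean ratio was 1.86 ± 0.50 (SD, n = 3 times; limma adjusted p = 0.00208) in the Ypk1 series and 2.05 ± 0.22 (SD, n = 3 times; limma adjusted p = 0.00282) in the Ypk2 series. The Ypk2 call did not hold with 30 min left out of both series (1.93, adjusted p = 0.0722). It was also lost with 60 min left out (2.06, adjusted p = 0.0687). In both of these fits 0 of all features passed for Ypk2, so the loss is not particular to PDR5. In the Ypk2 series PDR5 was already high at 0 min, and it was 1.16 on the array of WT Ypk2 over WT Ypk1. The change of PDR5 from 0 min was 1.88 for Ypk1 (limma adjusted p = 0.208) and 0.81 for Ypk2 (limma adjusted p = 0.999), and neither passed.

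Of 4 genes on the list for mannosylated sphingolipids, products that stimulate Fpk1, 3 passed as higher in AS cells over both series, beside 16.1% of all features, a grouping made after their values were seen. SUR1, which makes mannosylinositol phosphorylceramide, had a mean ratio of 0.87 (adjusted p = 0.00972), CSG2, its regulatory partner, 0.57 (adjusted p = 0.0403), and IPT1, which adds the final head group, 0.79 (adjusted p = 0.0123). CSH1, a relative of SUR1, stood between −0.45 and 0.25 on the 8 arrays and did not pass. Without centring SUR1 had 0.59 (adjusted p = 0.0531), CSG2 0.28 (adjusted p = 0.330) and IPT1 0.50 (adjusted p = 0.0970). At 0 min CSG2 already stood at 0.72 (Ypk1) and −0.33 (Ypk2). IPT1 was at 0.45 (Ypk1) and −0.28 (Ypk2) at 0 min, and SUR1 at −0.05 (Ypk1) and 0.65 (Ypk2).

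AKL1, an actin patch kinase that Fpk1 phosphorylates, had a mean ratio over both series of 0.51 (adjusted p = 0.0245), and ARK1, a relative of it, 0.50 (adjusted p = 0.0472). AKL1 already stood at 0.48 (Ypk1) and 0.34 (Ypk2) at 0 min, and its change from there was 0.23 and −0.04, neither of which passed. Without centring AKL1 had 0.22 (adjusted p = 0.294) and ARK1 0.21 (adjusted p = 0.412). Both calls were also lost with any one time left out, with adjusted p of at least 0.0543.

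MON2, a partner of Neo1 in endosomal traffic, had a mean ratio over both series of 0.63 (adjusted p = 0.0146) and CHO1, which makes phosphatidylserine, 0.50 (adjusted p = 0.0460). Without centring MON2 had 0.35 (adjusted p = 0.119) and CHO1 0.22 (adjusted p = 0.405), and the CHO1 call was also lost without 15 min (adjusted p = 0.0602). GEA2, an Arf exchange factor that binds Drs2, was lower at −0.67 (adjusted p = 0.00844), a call lost without 30 min (adjusted p = 0.0856) or 60 min (0.0821). In the Ypk2 series GEA2 already stood at −0.70 at 0 min. Its change from 0 min was −1.14 for Ypk1 (adjusted p = 0.343) and 0.22 for Ypk2 (adjusted p = 1.00), and neither passed. RSB1, an exporter of long-chain bases, passed as lower in the Ypk2 series alone (−0.74, adjusted p = 0.0492, against 0.56 and adjusted p = 0.0822 in the Ypk1 series). The difference between the series for RSB1, 1.29, did not pass (adjusted p = 0.411). Its Ypk2 call was lost without 15 min (adjusted p = 0.0598), 30 min (0.261) or 60 min (0.328). Without 30 or 60 min, 0 of all features passed for Ypk2. RSB1 stood at 2.06 (Ypk1) and 0.63 (Ypk2) at 0 min. Its change from there had the same direction in both series, −1.50 for Ypk1 (95% interval −2.43 to −0.58; adjusted p = 0.219) and −1.37 for Ypk2 (−2.29 to −0.45; adjusted p = 0.719), and neither passed. Without 30 min the list had 1 call over both series and without 60 min 2 calls.

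**Figure D4:**
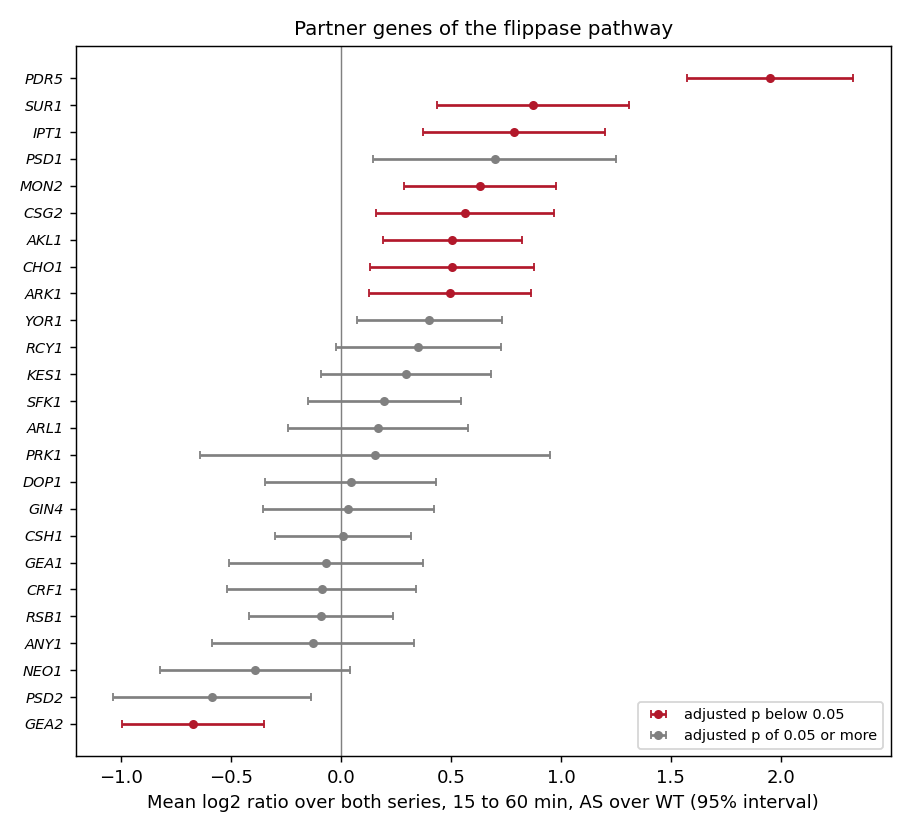
Mean log2 ratio of AS over WT cells over the 6 arrays with 15 to 60 min of inhibitor for the 25 partner genes, with the 95% interval of the limma fit; red points have an adjusted p below 0.05. PDR5 lies farthest to the right at 1.95, and GEA2 at −0.67 is the one red point left of 0.

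For each gene, the features with the most similar course over the 9 arrays were found by Pearson correlation among features of at least the same range. For FPK1 they were YMR085W (0.92), EPS1, an endoplasmic reticulum folding protein (0.91), and PDH1 (0.91), out of 2594 features. For LEM3 they were PEX6, a peroxisomal ATPase (0.97), the mitochondrial ribosomal protein gene MRPL11 (0.96) and ECM31 (0.95), out of 5171. KIN82 was most like SPO71 (0.96), SCJ1 (0.95) and ARA2 (0.95), and DNF1 most like PRS2 (0.96), PHO13 (0.95) and NMA111 (0.94). DNF2 was most like YOR240W (0.92), MSS51 (0.91) and POP2 (0.91), and DRS2 most like MMO1 (0.90), the TORC2 subunit gene TSC11 (0.87) and YOR343C-B (0.87). For CDC50 these were MSH6 (0.90), ZUO1 (0.90) and TKL2 (0.90), and for DNF3, with only 488 features of as wide a range, YNL205C (0.90), YTP1 (0.89) and MRPL19 (0.89). None of these features is one of the 8 genes or of the 25 partners, and correlations over 9 arrays that share strains are a description of course only. The 3 features named for DNF3 were lowest on the Ypk2 60 min array, at −3.52, −3.32 and −2.43, where DNF3 stood at −1.62. How far their correlations rest on that array was not tested.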

How the data were processed

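For each array the authors deposited 1 log2 ratio per feature. The base was taken as 2 because all ratios then fall on steps of 0.001. How the authors normalized them, and the scanner and array design, are not given in the sources used here. YPK1 and YPK2 on the WT array gave the direction as Cy5 over Cy3, which is assumed for the other 8 arrays. The table holds no intensities, so dim spots and dye bias could not be judged, and the number of arrays limits the precision.

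Each array was centred on its median. Features matched R64 gene names by systematic name for 5777 of 6268. The 6220 features with values on all 8 time course arrays were fitted with limma 3.58.1 (R 4.3.3). The fit had a mean per series for 0 min and for the later times (4 residual degrees of freedom). It was also run on simulated data with independent noise on each array, which cannot show how far times of a series depend on each other. The lone 0 min array of a series is assumed to vary like the others. All 8 members were named. Partners were named where they passed or by role, and for each member the 3 most correlated features. Members, lists and tests were chosen with earlier results of these data known, and the partner alternatives and the test of the difference between changes were added after seeing the data. No sequences are shown.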

Additional observations from a re-analysis of the deposited data

Results flagged for a closer look

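For DRS2, all 3 later arrays of the Ypk1 series lay above the 0 min array of that series, and all 3 later arrays of the Ypk2 series lay below theirs. The difference of the change, Ypk1 minus Ypk2, was 0.85 ± 0.60 (SE; 95% interval −0.51 to 2.22), and limma gave an adjusted p of 0.998 (unadjusted p = 0.190), in a test added after the values were seen. Opposite sides of 0 min at all 3 times were seen for 7.91% of all features. No feature passed the test of this difference (0 of 6220; 168 at an unadjusted p below 0.05). Both changes rest on 1 array at 0 min, and that of the Ypk1 series held the lowest time course value of DRS2, −0.73.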

How the results depend on the processing

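No paired analysis of replicates was possible because each condition had 1 array. The times were not paired between the series. The number of members called over both series was 1, ranged from 0 to 1 when a time was left out, and was 0 without centring and 2 with scaled arrays, quantile normalization or array weights. In the Ypk2 series array weights called 5 members, with a weight of 13.73 on the 30 min array. The counts for the Ypk1 series, the difference and both changes stayed at 0 under every alternative run. With scaled arrays 1 member was 2-fold apart at 0 min in the Ypk1 series, and 1 on the WT array both with scaled arrays and without centring. Of all features, 756 were 2-fold apart at 0 min in the Ypk1 series with scaled arrays. On the WT array 730 were with scaled arrays and 372 without centring.

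Of the partners, 1 to 5 passed in the Ypk1 series, 0 to 2 in the Ypk2 series and 1 to 7 over both when a time was left out. Without centring 2 passed in the Ypk1 series and 4 over both. In the Ypk1 series 3 passed with scaled arrays, 4 with array weights and 1 in a fit on that series alone, and in the Ypk2 series 17 with array weights.

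Of all features, 1335 were called for Ypk1, 257 without 30 min, 313 without 60 min and 645 in the fit on that series. For Ypk2 the count was 728, 0 without 30 or 60 min, 1214 after scaling, 1156 after quantile normalization and 4157 if arrays were weighted. Over both it was 1937, 705 without 30 min and 841 without 60 min, and the difference had 8 with array weights. Without centring the share of calls that were higher was 22.5% for Ypk1, 26.9% for Ypk2 and 20.7% over both, beside 51%, 59.6% and 51.6% with it.

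Some estimates changed sign. Without centring these were, over both series, KIN82 (−0.14), DNF2 (−0.0070), DNF3 (−0.23) and CDC50 (−0.043), for Ypk2 DNF1 (−0.24) and DNF2 (−0.11), and the Ypk1 change of FPK1 (−0.0046). With array weights they were KIN82 (0.26, adjusted p = 0.0365) and DNF3 (0.49, adjusted p = 0.0497) for Ypk2, CDC50 over both (−0.036), the series difference of FPK1 (0.12), and the Ypk2 changes of DNF3 (0.38) and CDC50 (−0.089). When a time was left out, the Ypk1 ratio ranged from −0.29 to 0.081 for DRS2 and from −0.29 to 0.022 for CDC50. The Ypk2 ratio ranged from −0.24 to 0.11 for KIN82, from −0.10 to 0.23 for DNF1 and from −0.84 to 0.30 for DNF3. Over both series it ranged from −0.072 to 0.22 for DNF3 and from −0.0050 to 0.46 for CDC50. The series difference ranged from −0.31 to 0.065 for FPK1 and from −0.15 to 1.53 for DNF3, and the Ypk2 change of DNF3 from −0.94 to 0.19. The cause was not tested.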
